A study of Mus musculus with 4 samples.

Results

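Integrins are the cell surface receptors that join a cell's skeleton to the matrix around it, and laminins are the cross-shaped proteins that form the core of the basement membrane. Here their genes were followed across 4 samples of normal skeletal muscle from wild type mice on a mixed 129S4/SvJae and C57BL/6 background, each hybridised to its own 1-colour Affymetrix array. The subunits were the genes whose symbols start with Itga, Itgb, Lama, Lamb or Lamc and that encode an integrin or laminin chain, taken from probe sets that the platform annotation gives to 1 gene, with the probe set of the highest mean standing for a gene. This gave 30 genes of the 12393 measured: 13 integrin alpha chains, 7 integrin beta chains and 10 laminin chains, read by 55 of the 22690 probe sets. Another 6 genes with such symbols were left out, among them the binding proteins Itgb1bp1, Itgb1bp2 and Itgb3bp and the integrin-like genes Itgb2l and Itgbl1. Itga1, Itga10, Itga11, Itgad and Itgb8 were not analysed here.

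The labels give a single group, whole normal muscle, and its titles are skm4, skm5, nm7 and nm8. What the prefixes skm and nm stand for is not given in the labels, and neither are the muscle, the age or sex of the mice, or which of 2 extraction routes a sample took. The samples were therefore compared as 2 skm against 2 nm arrays. The prefix may mark a batch, and prefix and batch cannot be told apart. Sarcomas, which the series also covers per its design text, were not analysed here. Values are log2 expression values after robust multi-array averaging (RMA), so a difference of 1 is 2-fold. Array medians lay between 7.26 and 7.29. The 10 markers of skeletal muscle fibres read between 13.35 and 14.70, against a highest value of 14.76 on any array, so the tissue label and its markers went together.

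An integrin is a pair of 1 alpha and 1 beta chain, and the alpha chain largely sets what it binds. In skeletal muscle the pair of Itga7 and Itgb1 binds the laminin around each fibre, which is built from Lama2, Lamb1 and Lamc1, while laminins with Lamb2 are known from neuromuscular and tendon junctions. Other pairs belong to other cells of the tissue: Itgb2 and Itgb7 to leukocytes, Itgb4 to epithelia and Schwann cells, and laminins with Lama4 or Lama5 to vessels. In whole tissue, fewer cells of a type and less RNA per cell cannot be told apart.

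Promoters are shown for 4 genes chosen after their values were seen and for which the RefSeq promoter table (GRCm38.p6) has an entry. They are Lamb1 and Lamb2, alternative beta chains whose brightest probe sets differed in opposite directions, Itgav, a widely expressed alpha chain, and Itgb7, a leukocyte beta chain. None of the 4 passed the test between the prefixes described below. Each runs from 250 bases before to 50 bases after the gene's start, 5′ to 3′ in the gene's direction. Capitals mark 2 motifs on either strand, the GC box core GGGCGG, which Sp1 binds, and GAGGAA, a purine-rich motif of some ETS factors. Other sequences that ETS factors can bind are not marked.
Lamb1, GRCm38.p6 chr12:31265043-31265342, plus strand: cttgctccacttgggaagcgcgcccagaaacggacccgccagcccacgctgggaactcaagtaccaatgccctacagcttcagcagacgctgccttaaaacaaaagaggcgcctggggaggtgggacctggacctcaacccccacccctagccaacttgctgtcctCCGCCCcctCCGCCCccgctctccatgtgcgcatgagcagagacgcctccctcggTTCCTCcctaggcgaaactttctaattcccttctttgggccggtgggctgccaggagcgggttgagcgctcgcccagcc
Lamb2, GRCm38.p6 chr9:108479612-108479911, plus strand: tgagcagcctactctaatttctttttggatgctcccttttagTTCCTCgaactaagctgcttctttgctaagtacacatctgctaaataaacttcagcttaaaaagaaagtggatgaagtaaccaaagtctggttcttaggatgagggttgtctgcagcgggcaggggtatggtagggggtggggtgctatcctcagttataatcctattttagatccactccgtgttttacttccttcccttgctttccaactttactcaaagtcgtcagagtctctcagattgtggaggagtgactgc
Itgav, GRCm38.p6 chr2:83724147-83724446, plus strand: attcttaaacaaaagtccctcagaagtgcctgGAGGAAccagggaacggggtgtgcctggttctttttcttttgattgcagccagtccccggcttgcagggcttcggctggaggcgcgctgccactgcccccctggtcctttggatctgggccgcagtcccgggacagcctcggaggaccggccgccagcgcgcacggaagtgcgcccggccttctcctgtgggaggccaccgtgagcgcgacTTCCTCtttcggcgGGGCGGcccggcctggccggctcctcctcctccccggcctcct
Itgb7, GRCm38.p6 chr15:102231886-102232185, minus strand: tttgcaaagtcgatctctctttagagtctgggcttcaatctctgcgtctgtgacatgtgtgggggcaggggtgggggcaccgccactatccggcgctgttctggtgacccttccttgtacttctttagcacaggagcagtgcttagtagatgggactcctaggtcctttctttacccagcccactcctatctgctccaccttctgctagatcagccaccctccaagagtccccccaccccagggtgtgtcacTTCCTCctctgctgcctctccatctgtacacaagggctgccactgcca

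The Lamb1 promoter held 2 GC box cores and the Lamb2 promoter 0, with a GC content of 63.7% and 44%, against a median of 52.7% over all promoters. All 4 held GAGGAA at least once, and the Itgb7 promoter held it at base 3 after the start. Over all 32851 promoters of this length, 35.7% held GGGCGG, 28.3% GAGGAA and 7.81% the AP-1 site TGANTCA, which none of the 4 held. Of the 21 promoters listed for 18 of the 30 subunit genes, 11 held GGGCGG, 12 held GAGGAA and 3 held TGANTCA. No 2 of these matches overlapped in the 4 sequences shown. These matches describe letters in a window and were not tested against the expression values.

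Across the 4 samples most subunits varied by less than 2-fold. Their SDs ran from 0.11 to 0.68 with a median of 0.23 (n = 4), beside a median of 0.19 over all genes. A range over 1 was seen in 2 of 30 subunits, Itgb2 and Lama3, where the share over all genes was 5.98%, and a range over 0.5 in 16 of 30, where it was 38.7%. The steadiest were Itgal, Lama2 and Itga6, with SDs of 0.11, 0.12 and 0.12. Sample nm8 held the highest value of 13 of the 30 subunits and skm4 the lowest of 12, where over all genes nm8 was highest in 27.2% and skm4 lowest in 26.7%. Over all genes skm4 was the sample most often highest, in 29.3%. The median size of the difference over the 30 subunits was 0.22 between skm4 and skm5, 0.15 between nm7 and nm8, and between 0.27 and 0.37 in the pairs of an skm and an nm sample. Over all genes the same values were 0.16, 0.14 and between 0.22 and 0.26.

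**Figure D1:**
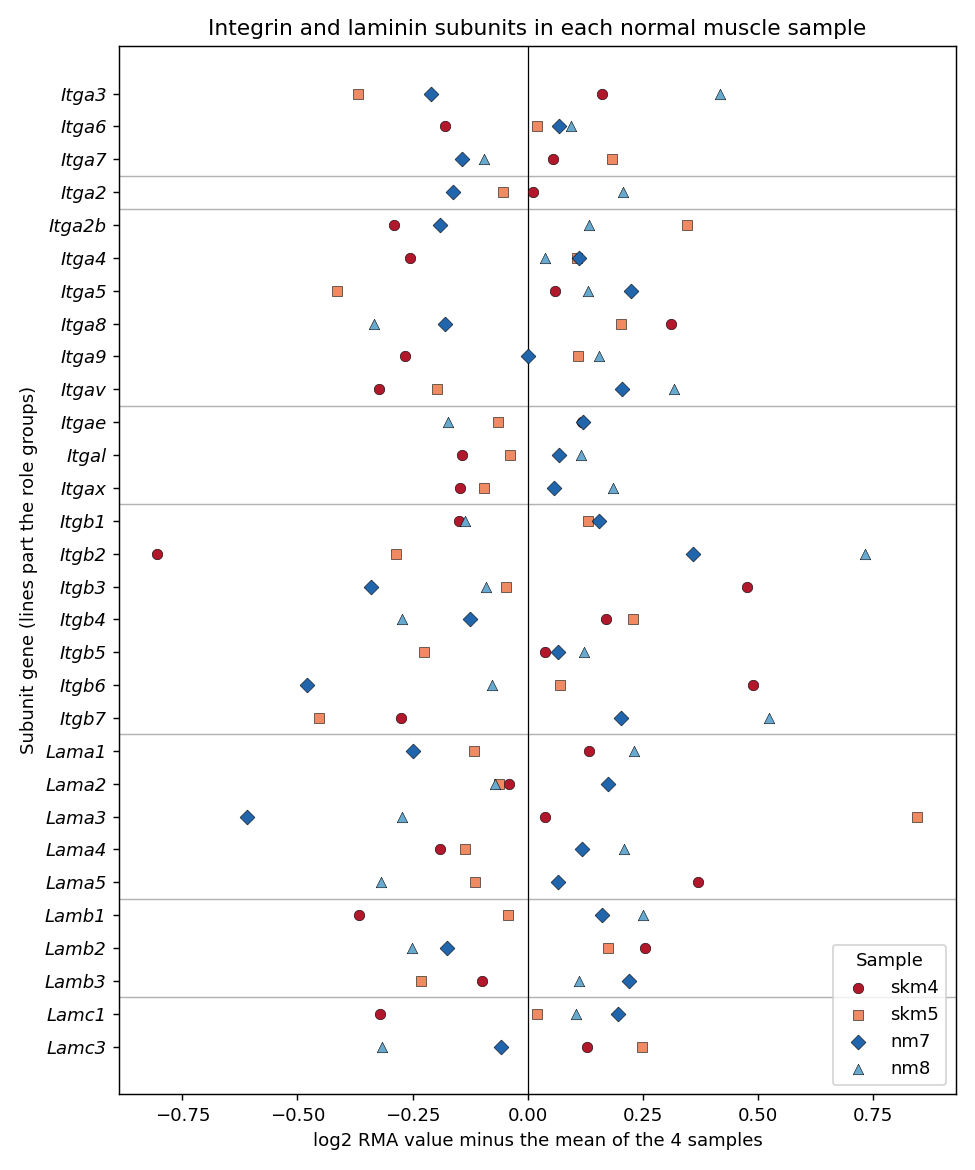
Each point is the log2 RMA value of a subunit in 1 sample minus that subunit's mean over the 4 samples, with genes down the page and lines between role groups. Itgb2 and Lama3 spread most, with SDs of 0.68 and 0.62, while Itga6, Itgal and Lama2 stay close to their means.

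Between the prefixes, 0 of 30 subunits passed the test over all genes (limma, Benjamini-Hochberg over 12393 genes, threshold 0.05). That threshold passed 4 genes in all, which is 0.0323%. At an unadjusted p under 0.05 there were 12 subunits, which is 40% where the share over all genes was 23.5%. These were 6 higher and 6 lower in skm, where 10.6% and 13% of all genes were. At an adjusted p under 0.10, a threshold added after the data were seen, there were 3 of 30 (Itgb2, Itgb7 and Itgav), where the share over all genes was 8.03%. The skm and nm samples did not overlap in 20 of 30 subunits, where 54.4% of all genes did not overlap. Of the 20, 8 were higher and 12 lower in skm, where 25.8% and 28.6% of all genes were. The median skm minus nm difference was -0.13 over the subunits and -0.0034 over all genes, and the median size of the difference was 0.28 and 0.20. With 2 arrays against 2, a permutation test of 1 gene cannot go below an exact two-sided p of 0.333, so only the fit across all genes was used. Separate animals are not stated in the labels, so these p-values measure only the spread between arrays, which may be technical.

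**Figure D2:**
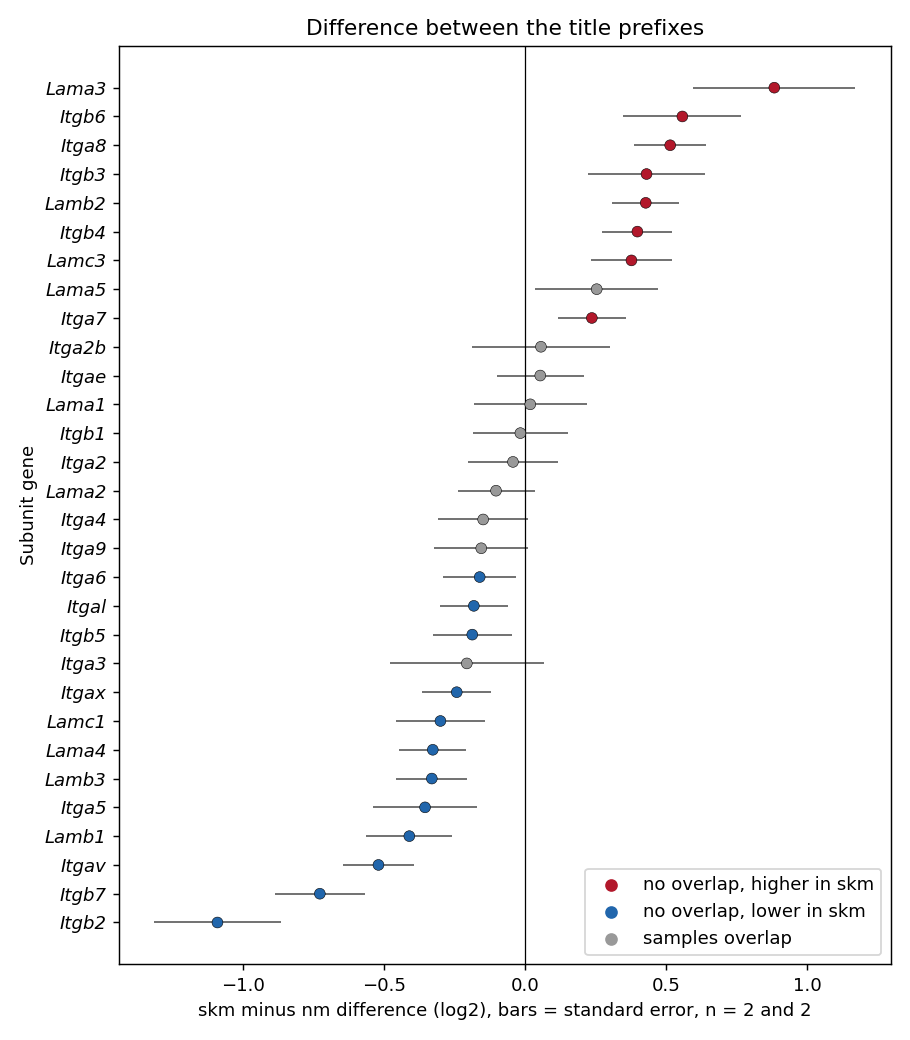
Points are skm minus nm differences on the log2 scale for the 30 subunits, and bars are standard errors of the limma fit with 2 arrays per prefix. Differences run from -1.09 for Itgb2 to 0.88 for Lama3, and none passed the test over all genes.

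The laminin receptor of the muscle fibre had no chain past the test over all genes. Itga7, its alpha chain, read 9.40 in skm4 and 9.53 in skm5, against 9.20 in nm7 and 9.25 in nm8. Both skm samples lay above both nm samples, with a difference of 0.24 ± 0.12 SE (limma adjusted p = 0.309). Itgb1, the beta chain shared by Itga7 and most matrix receptors, read 9.36 and 9.64 in skm, against 9.66 and 9.37 in nm. Each prefix held 1 high and 1 low sample, and the means of 9.50 and 9.52 were 0.02 apart. Those values are from the brightest probe set of Itgb1, and its 6 probe sets differed by -0.25 to 0.43. Itga6, the laminin receptor of epithelia, endothelium and satellite cells, read 9.79 and 9.99 in skm and 10.04 and 10.06 in nm, a difference of -0.16 ± 0.13. Its second probe set differed by -0.45. Satellite cell markers had a negative difference in 6 of 8 cases, with a median of -0.44 and sums of 2336 and 2481 in skm, against 2746 and 2613 in nm. At an unadjusted p under 0.05, 5 were lower in skm, where 13% of all genes were: Pax7, Cxcr4, Chrdl2, Sdc4 and Vcam1. The last of these, Sdc4 and Vcam1, are also counted among the adhesion partners below. In the other direction 1 was higher, where 10.6% of all genes were: Myod1, whose difference of 1.24 ± 0.16 was the largest in size of the 8. Myf5 and Cdh15 overlapped between the prefixes, at -0.11 and 0.13. None passed the limma test over all genes. The part of satellite cells in the Itga6 value was not tested. Itga3, another laminin-binding chain, read 7.61 and 7.08 in skm and 7.24 and 7.87 in nm, with 1 high and 1 low sample in each prefix, and its other probe sets had the opposite sign at 0.21 and 0.30.

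Laminin beta chains differed in opposite directions. Lamb1, the beta chain of the fibre's main laminin, read 10.18 in skm4 and 10.50 in skm5, against 10.70 in nm7 and 10.79 in nm8. Both skm values were the lower ones, and the difference was -0.41 ± 0.15 (1.33-fold, limma adjusted p = 0.190). Lamb2, the beta chain of synaptic and vascular laminins, read 9.95 and 9.87 in skm, against 9.52 and 9.45 in nm. Here both skm values were the higher ones, with a difference of 0.43 ± 0.12 (1.34-fold, adjusted p = 0.118). Neither passed the main test. Lamb2 passed at an adjusted p of 0.0438 with an intensity trend in the variance model and of 0.0386 among the genes left by a filter at the median level, and Lamb1 passed under neither. The 3 probe sets of Lamb1 did not go one way: the brightest differed by -0.41, another by -0.34 and the dimmest by 0.33. Their mean gave a difference of -0.14.

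Of the partner chains of Lamb1 in the fibre's laminin, Lamc1 was lower in both skm samples and Lama2 overlapped between the prefixes. Lama2, the alpha chain whose loss causes a congenital muscular dystrophy, read 10.53 and 10.50 in skm and 10.74 and 10.49 in nm, so that nm7 alone stood above the other samples and the difference was -0.10 ± 0.14. Lamc1, the gamma chain found in most laminins, read 9.99 and 10.33 in skm, against 10.50 and 10.41 in nm. Both skm values lay below both nm values, by -0.30 ± 0.16 in the mean, with skm4 the lowest sample (adjusted p = 0.313). A second probe set of Lamc1 differed by -0.23.

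Among the alpha chains of vascular and other basement membranes, Lama4, a chain of vessel walls, fat and nerve, read 9.56 and 9.62 in skm, against 9.87 and 9.96 in nm. Both skm values were lower, with a difference of -0.33 ± 0.12 (adjusted p = 0.183). Lama5, a chain of mature vessels, epithelia and the synapse, read 9.24 and 8.75 in skm and 8.93 and 8.55 in nm, and its prefixes overlapped (0.25 ± 0.22). That difference was 0.01 without skm4 and 0.06 without nm8. Lama1, a chain of embryonic basement membranes, read 6.41 and 6.16 in skm and 6.02 and 6.50 in nm, with no order between the prefixes. Lamc3, a gamma chain outside the usual basement membrane laminins, read 5.03 and 5.15 in skm, against 4.84 and 4.58 in nm (0.38 ± 0.14, adjusted p = 0.195), and its second probe set differed by 0.09. Of 10 endothelial markers, 5 had a positive and 5 a negative difference. At an unadjusted p under 0.05 there were 3 higher and 1 lower in skm, where 10.6% and 13% of all genes were. The higher ones were Pecam1, an adhesion molecule, at 1.31 ± 0.16, Ramp2, an adrenomedullin receptor component, at 0.99 ± 0.12, and Esam, a junction protein, at 0.55 ± 0.13. The lower one was Kdr, a VEGF receptor, at -0.58 ± 0.12. None passed the limma test over all genes. Endothelial marker values summed on the linear scale to 6489 and 6867 in skm and 5525 and 5527 in nm, and their part in the laminin differences was not tested. Adipocyte markers had a negative difference in 7 of 8 measured cases, with a median difference of -0.47 and sums of 23760 and 30608 in skm, against 34396 and 37365 in nm. At an unadjusted p under 0.05, 4 of them were lower and 0 higher, where 13% and 10.6% of all genes were. None was past the limma test over all genes. Lep, which encodes leptin, differed most, by -2.26 ± 0.26. Adipoq, Retn, Pparg and Scd1 differed by -0.38 to -0.94, while Lipe, Fabp4 and Cidec stood at -0.10, -0.01 and 0.01. The part of adipocytes in the Lama4 value was not tested.

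**Figure D3:**
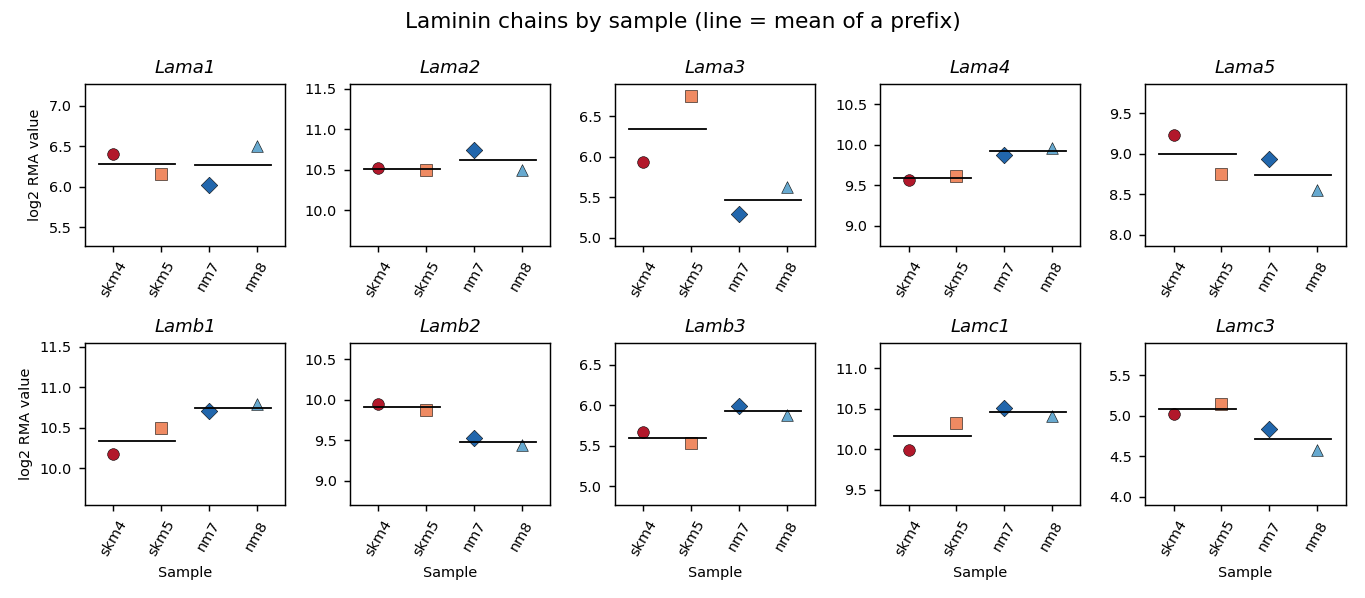
Points are log2 RMA values of each laminin chain by sample, and lines are the means of the skm and nm samples; axes span at least 2 units and differ between panels. Lamb1 is lower and Lamb2 higher in both skm samples, and nm7 stands apart in Lama2.

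Chains of the epidermal basement membrane did not move together. Lama3, the alpha chain of the laminin that anchors epidermis, read 5.94 in skm4 and 6.75 in skm5, against 5.29 in nm7 and 5.63 in nm8. Sample skm5 was the highest, and the difference of 0.88 ± 0.29 (1.84-fold, adjusted p = 0.153) became 0.48 without skm5 and 1.29 without skm4. Lamb3, the partner of Lama3 in that laminin, had the opposite sign, with 5.66 and 5.53 in skm and 5.98 and 5.87 in nm (-0.33 ± 0.13, adjusted p = 0.196). Itgb4, the beta chain of hemidesmosomes, read 7.85 and 7.92 in skm, against 7.56 and 7.41 in nm. Both skm samples were higher and close to each other (0.40 ± 0.12, adjusted p = 0.143). Itgb6, an epithelial beta chain that pairs with Itgav, read 7.26 and 6.84 in skm and 6.30 and 6.70 in nm, with nm7 the lowest (0.56 ± 0.21, adjusted p = 0.192). It was 0.36 without nm7 and 0.35 without skm4.

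Of 9 measured keratinocyte markers, 6 had their highest value in skm5. The other 3, Ivl, Trp63 and Sfn, were highest in nm8, nm7 and skm4, and Krt5, a basal keratin, was above both nm samples in skm4 too, at 6.71. Of the 9, 7 had a positive difference, and their values summed on the linear scale to 821 in skm4 and 2270 in skm5, against 792 in nm7 and 930 in nm8. Centred on each marker's mean, their median was 0.92 in skm5 and between -0.42 and -0.17 in the other samples. Lama3 shared the high value in skm5, whereas Itgb6 was highest in skm4 and Itgb4 was about equally high in both skm samples. None of the markers is at 0 on this scale, and their part in the Lama3 value was not tested. Of 7 Schwann cell markers 4 had a positive difference, and the 7 summed to 5190 and 9825 in skm and 7428 and 6953 in nm. Mbp and Pmp22, which overlapped between the prefixes, were the brightest and weigh most in those sums. At an unadjusted p under 0.05, 1 was higher and 0 lower in skm, where 10.6% and 13% of all genes were. It was Mag, at 0.42 ± 0.12. Sox10, at 0.27 ± 0.12, was also higher in both skm samples. Neither passed the limma test over all genes, and their part in the Itgb4 value was not tested.

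Leukocyte beta chains had the most negative differences of the 30 subunits. Itgb2, the beta chain shared by the leukocyte integrins, read 6.42 in skm4 and 6.94 in skm5, against 7.59 in nm7 and 7.96 in nm8. The samples of each prefix stayed apart, with a difference of -1.09 ± 0.22 (2.13-fold lower in skm, limma adjusted p = 0.0754). Itgb7, which pairs with Itga4 or Itgae and homes lymphocytes to gut and lymphoid tissue, read 7.06 and 6.88 in skm, against 7.54 and 7.86 in nm. Again both skm values were the lower ones, with a difference of -0.73 ± 0.16 (1.66-fold, adjusted p = 0.0818). With an intensity trend Itgb2 passed at an adjusted p of 0.0312, and Itgb7 did not pass 0.05 under any setting tried.

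The alpha chains of the same receptors differed less. Itgal, the alpha chain of LFA-1, read 5.96 and 6.06 in skm and 6.17 and 6.22 in nm (-0.18 ± 0.12). Itgax, the alpha chain of dendritic cells and some macrophages, read 7.05 and 7.11 in skm and 7.26 and 7.39 in nm (-0.24 ± 0.12). Both were lower in both skm samples, by small amounts. Itga4, the alpha chain that binds Vcam1, read 5.08 and 5.44 in skm and 5.45 and 5.37 in nm, with skm4 the lowest (-0.15 ± 0.16). Itgae, which binds E-cadherin, differed by 0.05 ± 0.16, and both overlapped between the prefixes. None of the 4 passed the test.

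Lymphocyte markers were lower in both skm samples in all 8 measured cases, where 28.6% of all genes were, with a median difference of -1.67. On the linear scale they summed to 743 in skm4 and 1445 in skm5, against 2821 in nm7 and 3186 in nm8, in the same order of samples as Itgb2. Ptprc, the pan-leukocyte phosphatase CD45, read 7.28 and 9.33 in skm and 10.42 and 10.54 in nm. It was the brightest of these markers in skm5, nm7 and nm8 and so weighs most in those sums. Cd3g, a T cell receptor chain, read 4.90 and 5.66 in skm and 7.45 and 8.09 in nm. The sizes were uneven: Cd3e, Cd8a and Cd4 differed by -0.38, -0.37 and -0.11, and the other markers by -1.64 to -2.49. Itgb7 had its lowest value in skm5, not in skm4. Macrophage markers summed to 4628 and 6525 in skm and 7077 and 6658 in nm, with 8 of 10 negative, and neutrophil markers to 430 and 574 in skm and 494 and 563 in nm, with 5 of 7 negative. No marker is at 0 on this scale, and the part of any of these cells in the Itgb2 and Itgb7 values was not tested.

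**Figure D4:**
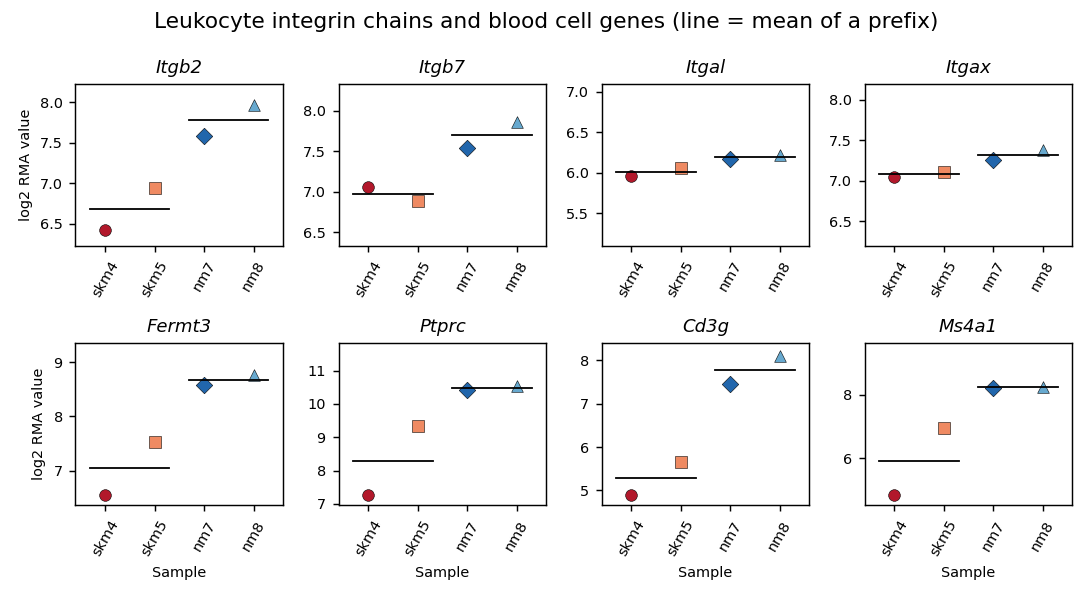
Points are log2 RMA values by sample of 4 leukocyte integrin chains, the integrin activator Fermt3 and 3 leukocyte markers, and lines are the means of the skm and nm samples; axes span at least 2 units and differ between panels. Both skm samples lie below both nm samples in all 8 panels, with differences from -0.18 for Itgal to -2.49 for Cd3g. The panels are a selection. Itga4 and Itgae, which overlapped between the prefixes, are not shown, and the 3 markers are those with the largest differences of the lymphocyte list.

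The receptors of fibronectin, vitronectin and related ligands were split. Itgav, the alpha chain of vitronectin receptors and of those that activate TGF-beta, read 10.92 and 11.05 in skm, against 11.45 and 11.56 in nm. Both skm values were lower, by -0.52 ± 0.13 (1.43-fold, adjusted p = 0.0952), and the test was passed at an adjusted p of 0.0192 with an intensity trend and of 0.0295 after a filter at the median level. The other 2 probe sets of Itgav, both dimmer, differed by -0.21 and 0.15, and with the mean of all 3 the difference was -0.19. Itga5, the classical fibronectin receptor, read 6.88 and 6.41 in skm and 7.04 and 6.95 in nm, with skm5 the lowest (-0.35 ± 0.18), and it differed by -0.12 without skm5. Fn1, which encodes fibronectin, differed by -0.49 ± 0.21 and Vtn, which encodes vitronectin, by -0.45 ± 0.18, neither past the test.

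Among the beta partners of Itgav, Itgb3 and Itgb6 had the opposite sign and Itgb5 the same. Itgb3, the beta chain of platelets, endothelium and osteoclasts, read 6.55 and 6.03 in skm and 5.74 and 5.99 in nm (0.43 ± 0.21), and the difference was 0.17 without skm4. Its platelet partner Itga2b read 6.81 and 7.44 in skm and 6.91 and 7.23 in nm, with no order between the prefixes. Platelet markers summed to 1028 and 1161 in skm and 1073 and 1189 in nm. Pf4, which overlapped between the prefixes, was the brightest of the 6 and so weighs most in those sums. At an unadjusted p under 0.05, 1 was lower and 0 higher in skm, where 13% and 10.6% of all genes were. It was Ppbp, at -0.83 ± 0.13, which did not pass the limma test over all genes. Of the 6, 2 had a positive and 4 a negative difference. Itgb5, a vitronectin receptor chain, read 10.33 and 10.07 in skm and 10.36 and 10.42 in nm, with both skm values lower (-0.19 ± 0.14), and its 4 probe sets ran from -0.19 to 0.20, with both signs.

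Itga8, the alpha chain of mesenchymal and smooth muscle cells, was higher in skm at 5.34 and 5.23, against 4.85 and 4.69 in nm. The prefixes stayed apart with a difference of 0.51 ± 0.13 (1.43-fold, adjusted p = 0.102). Npnt, which encodes its ligand nephronectin, read 7.68 and 8.08 in skm, against 7.41 and 7.20 in nm (0.57 ± 0.18, adjusted p = 0.141). Itga8 read low on this scale, where RMA compresses differences, and neither gene passed the test. Smooth muscle and pericyte markers summed to 29658 and 26736 in skm and 30454 and 29791 in nm, with 7 of 10 negative. Des, also counted among the skeletal muscle fibre markers, was the brightest of them in every sample and so weighs most in those sums. It read 13.71 and 13.35 in skm and 13.71 and 13.82 in nm. Itga9, which binds tenascin and Vcam1, read 8.15 and 8.52 in skm and 8.41 and 8.57 in nm, a difference of -0.16 ± 0.17 with skm4 the lowest, and 1 of its other probe sets differed by 0.42. Itga2, a collagen receptor chain, also overlapped between the prefixes (-0.04 ± 0.16).

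Where several probe sets read a subunit, they often did not go one way. Of the 14 such subunits, 7 had probe sets of a single sign and 7 of both signs. The single-sign ones were Itga5, Itga6, Itgb6, Lama4, Lama5, Lamc1 and Lamc3. Both signs were seen for Itga3, Itga4, Itga9, Itgav, Itgb1, Itgb5 and Lamb1. Itgb1 had 6 probe sets with differences from -0.25 to 0.43, among them ones that read only 3.66 and 3.50 in the mean. Some signs rest on dim probe sets: the positive one of Itga4 read 3.51 and differed by 0.0015, and that of Itgav read 4.39. For scale, the TrpnX control probe sets read at most 4.05. Probe sets with a positive difference of Itga3, Itga9, Itgb1, Itgb5 and Lamb1 read between 5.39 and 10.06. The other 16 subunits, Itgb2, Itgb7, Itga8, Lama3 and Lamb2 among them, rest on a single probe set.

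**Figure D5:**
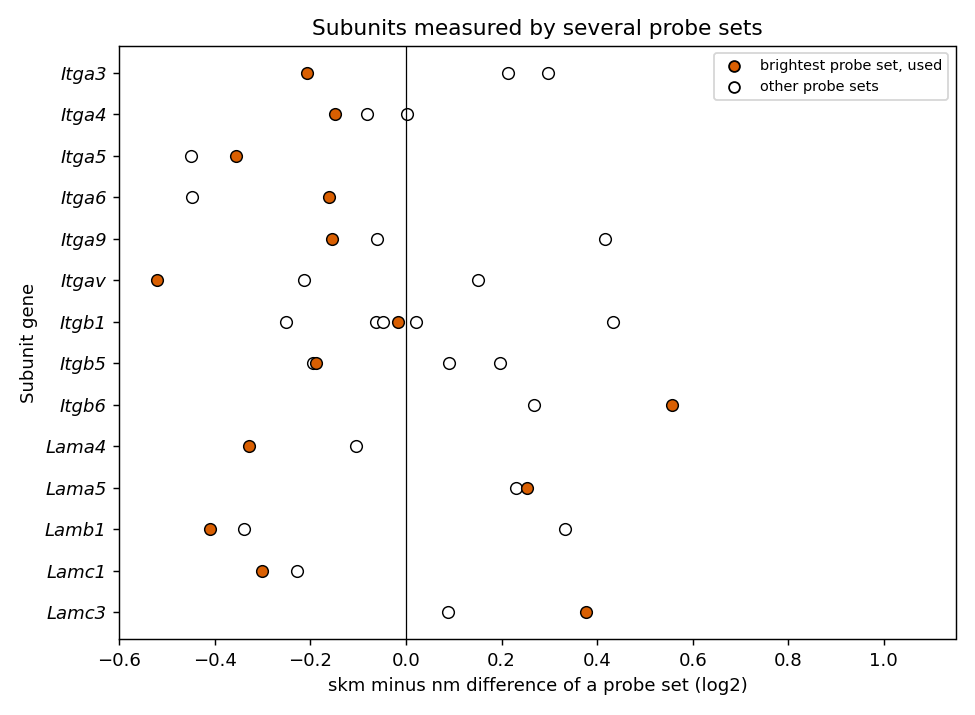
Each point is the skm minus nm difference of 1 probe set on the log2 scale for the 14 subunits with several probe sets, and filled points are the brightest probe set, which stands for the gene. Points lie on both sides of 0 for 7 of the 14 subunits.

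Other genes of the same adhesion system were read from lists of partners. Of 9 basement membrane partners 0 passed the limma test in either direction, while Nid2, a linker of laminin and collagen IV, differed by -0.51 ± 0.17 and Col15a1, a collagen of the basement membrane zone, by -0.60 ± 0.15 (adjusted p = 0.167 and 0.0966). Of 9 other laminin receptors and their partners 0 passed, with the syndecans Sdc4 at -0.82 ± 0.11 and Sdc3 at 0.67 ± 0.13 (limma adjusted p = 0.0506 and 0.0693). Dag1, which encodes the laminin receptor dystroglycan, stood at 0.11 ± 0.12. Of 11 further integrin ligands 0 passed, with Vcam1, the ligand of Itga4 and Itga9, at -0.62 ± 0.13 (adjusted p = 0.0787) beside Npnt.

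The list of integrin-linked cytoplasmic proteins held the largest differences of the 4 lists. Tln1, which encodes talin, the activator that links integrins to actin, read 9.86 and 9.89 in skm, against 8.74 and 8.68 in nm. The difference was 1.17 ± 0.12 (adjusted p = 0.0506), just short of the threshold. Fermt3, which encodes kindlin-3 of blood cells, read 6.56 and 7.53 in skm, against 8.58 and 8.75 in nm (-1.62 ± 0.32, adjusted p = 0.0713). Sharpin, an inhibitor of integrin activation, differed by 0.52 ± 0.12 (adjusted p = 0.0943). In this list 0 of 18 genes passed in either direction, and Itgb1bp2, the muscle protein melusin that binds Itgb1, stood at 0.22 ± 0.12. Over the 4 lists, the numbers at an unadjusted p under 0.05 were 0 higher and 2 lower for basement membrane partners, 1 and 1 for other laminin receptors, 1 and 2 for ligands, and 2 and 1 for cytoplasmic proteins. In all these were 4 higher and 6 lower of 47 genes, which is 8.51% and 12.8%, near the 10.6% and 13% over all genes.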

How the data were processed

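The authors deposited 1 log2 value per probe set and array. Per the submitters' processing notes they were made by RMA with Affymetrix Expression Console 1.1, and their range and medians fit a log2 scale. RMA corrects background, brings arrays to 1 distribution and summarises probes, and it compresses differences of dim and very bright probe sets. Other arrays normalized together with these are not stated here. The 64 control probe sets were left out. Of the rest, 20380 had 1 gene in the platform annotation, with symbols updated by Entrez identifier against GRCm38.p6. The brightest probe set stood for a gene, and no filter was applied. limma 3.58.1 in R 4.3.3 (lmFit, eBayes; 2 residual and 3.51 prior degrees of freedom) tested skm minus nm over 12393 genes, two-sided, with Benjamini-Hochberg adjustment. It was tested on simulated data. Errors of differences are standard errors with 2 arrays per prefix, and precision is limited by the number of arrays. The members and lists were chosen with earlier results of these data known. Sample values are given for subunits with a range over 0.5, a difference over 0.3 without overlap, discordant probe sets or a place in the muscle laminin receptor, and for some others; genes of the 4 lists of adhesion partners are named at an unadjusted p under 0.05 and a difference over 0.5, and all other genes, cell type markers included, were chosen after their values were seen. Alternatives covered normalization, a level filter, the probe set rule, the variance model and each sample left out.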

Additional observations from a re-analysis of the deposited data

Results flagged for a closer look

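Of the 30 subunits, Lama2 was the one with a sample far from the others: nm7 read 10.74, against 10.49 to 10.53 in the other samples, a gap of 0.874 of the whole range, which is above Dixon's critical value at the 95% level for 4 samples. The range itself was 0.25, and at this level chance flags about 1 in 20 groups.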

How the results depend on the processing

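The count of subunits past the test was 0 under quantile normalization, median centring, the mean of probe sets, without probe sets prone to cross-hybridization and with each sample left out. It was 2 of 12 (Itgav and Lamb2) with a filter at the median level, where 16.6% of genes passed, 3 of 30 (Itgav, Itgb2 and Lamb2) with an intensity trend, where 8.96% did, and 3 of 30 (Itgb2, Itgb7 and Itgav) at a threshold of 0.10, chosen after seeing the data, where 8.03% did. The number of all genes past the test, 4, was 188 with quantile normalization, 1026 with the level filter, 92 with the mean of probe sets, 142 without cross-hybridizing probe sets, 1110 with the trend, 995 at 0.10, and between 0 and 15 with a sample left out; it was 0 without nm7, nm8 or skm4 and 15 without skm5. Subunits without overlap numbered 8 of 12 with the level filter, since fewer genes are tested there, against 20 of 30. The median SD of the subunits was 0.19 to 0.25 over all settings.

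The sign held under every alternative for 20 subunits, including Itgb2, Itgb7, Itgav, Itga7, Itga8, Lama3, Lama4, Lamb1, Lamb2 and Lamc1. The prefixes did not overlap in any subunit named here, so leaving out 1 sample could not turn its sign. The intensity trend and the level filter leave the difference itself unchanged. Changes of probe sets could have turned the sign only for Itgav and Lamb1, whose probe sets have both signs. Itgb2, Itgb7, Itga7, Itga8, Lama3 and Lamb2 rest on a single probe set, and those of Lama4 and Lamc1 have a single sign. For these only a change of normalization could have turned the sign. Median centring could move a difference only slightly, as array medians lay between 7.26 and 7.29. The sign turned at least once for 10 subunits whose differences were small. Itgb1 was 0.0123 with quantile normalization, 0.0061 with centring and 0.0125 with the mean of probe sets. With the mean of probe sets Itga3 was 0.101 and Itga9 0.0667, and without cross-hybridizing probe sets Itgb5 was 0.0899. With 1 sample left out, the difference ran from -0.228 to 0.141 for Itga2, -0.262 to 0.373 for Itga2b, -0.521 to 0.108 for Itga3, -0.330 to 0.0322 for Itga4, -0.343 to 0.0319 for Itga9, -0.0942 to 0.201 for Itgae, -0.163 to 0.129 for Itgb1, -0.223 to 0.258 for Lama1 and -0.226 to 0.0195 for Lama2. The cause was not tested. No paired analysis was possible because the labels give no replicate numbers that pair the samples.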
